A study of Mus musculus with 30 samples.

Results

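The tricarboxylic acid cycle enzymes described here are encoded by 9 nuclear genes: Cs, Idh2, Idh3a, Ogdh, Dlst, Suclg1, Sucla2, Fh1 and Mdh2. They were picked by gene symbol, as the entries of a deposited count table whose Ensembl identifier carries one of these symbols in the GENCODE mouse annotation. All 9 were found among 55487 gene identifiers, and all 9 passed the filter on low counts in both cohorts. RNA came from 30 mouse hearts, taken 8 weeks after surgery that was either TAC (transverse aortic constriction, in which a clip on the aorta loads the left ventricle with pressure) or a sham operation. Per the series description, the study asked about the role of Cpt1a, the enzyme that commits long-chain fatty acids to mitochondrial import, in the heart under pathological load.

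The floxed cohort held mice labelled as Cpt1a floxed (FF) and mice labelled as cardiac-specific Cpt1a knockouts (KO), in 4 groups of 4 hearts: FF_sham, FF_TAC, KO_sham and KO_TAC. The labels name no Cre driver and do not give the deleted exons, and the series description calls the same mice a knockdown. Titles of the KO_TAC samples read as both TAC and sham, and the group was taken from their genotype and treatment labels. The AAV9 cohort held C57Bl/6 mice that received PBS (PBS_sham and PBS_TAC, 3 hearts each) or an AAV9 vector with Cpt1a, named in the series description with a cTNT element for cardiac expression (AAV_sham and AAV_TAC, 4 hearts each). A PBS injection is not an empty vector, so the AAV groups differ from their controls in the virus as well as in the gene it carries. The clip was 0.016 or 0.018 inch wide, with no record of which mouse had which. Nothing in the labels says that samples of a group are separate animals. Each sample is called a heart throughout, and n counts samples. The p-values therefore measure the spread between these samples, which may be partly technical.

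The cycle runs in the mitochondrial matrix and oxidises the acetyl groups that fatty acid oxidation and pyruvate dehydrogenase deliver. Citrate synthase joins the acetyl group to oxaloacetate, a run of dehydrogenases strips electrons from the product, and malate dehydrogenase restores the oxaloacetate. The electrons feed the respiratory chain, which makes most of the ATP that a beating heart uses. Heart muscle is dense in mitochondria, so the transcripts of the cycle are abundant there. Many nuclear genes of oxidative metabolism respond to the coactivator PGC-1α and to partners such as the oestrogen-related receptors, NRF1 and GABPA.

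Promoter sequence is shown for Cs, Dlst and Sucla2, which with Idh3a were called lower in KO_TAC against both FF_TAC and KO_sham, for Ogdh, called lower against FF_TAC alone, and for Mdh2, called in neither comparison. Windows were taken from RefSeq on GRCm38.p6 and run from 250 bases before the start site, with 30 of the 50 bases after it printed. All members but Idh3a matched, 8 of 9, with 13 windows in all, 6 of them for Ogdh. The Ogdh window shown was picked from these because it holds a motif match. Capitals mark a motif match, searched on both strands.

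Cs promoter, chr10:128337477-128337756, plus strand: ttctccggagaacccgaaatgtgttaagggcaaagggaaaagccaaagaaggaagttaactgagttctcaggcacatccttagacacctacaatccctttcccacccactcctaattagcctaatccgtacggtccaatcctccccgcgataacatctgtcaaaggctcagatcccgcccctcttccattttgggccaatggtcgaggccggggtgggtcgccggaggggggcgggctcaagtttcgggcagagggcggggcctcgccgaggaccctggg

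Dlst promoter, chr12:85110583-85110862, plus strand: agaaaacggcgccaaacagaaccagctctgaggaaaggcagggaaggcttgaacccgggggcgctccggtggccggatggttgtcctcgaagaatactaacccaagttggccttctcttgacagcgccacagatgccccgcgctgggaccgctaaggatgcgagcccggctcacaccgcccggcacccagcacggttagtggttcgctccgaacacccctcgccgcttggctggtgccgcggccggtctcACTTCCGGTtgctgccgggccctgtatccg

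Sucla2 promoter, chr14:73552536-73552815, plus strand: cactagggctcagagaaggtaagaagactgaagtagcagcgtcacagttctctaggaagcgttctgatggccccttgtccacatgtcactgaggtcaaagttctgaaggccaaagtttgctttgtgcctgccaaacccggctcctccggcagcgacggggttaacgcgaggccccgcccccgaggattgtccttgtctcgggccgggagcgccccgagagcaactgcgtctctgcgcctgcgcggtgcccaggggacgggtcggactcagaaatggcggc

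Ogdh promoter, chr11:6292308-6292587, plus strand: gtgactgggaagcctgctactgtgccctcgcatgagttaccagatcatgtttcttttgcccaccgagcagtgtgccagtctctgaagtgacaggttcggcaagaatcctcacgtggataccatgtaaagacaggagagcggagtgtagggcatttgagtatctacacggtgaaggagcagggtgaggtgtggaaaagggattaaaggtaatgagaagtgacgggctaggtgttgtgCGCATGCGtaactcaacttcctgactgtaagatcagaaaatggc

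Mdh2 promoter, chr5:135778399-135778678, plus strand: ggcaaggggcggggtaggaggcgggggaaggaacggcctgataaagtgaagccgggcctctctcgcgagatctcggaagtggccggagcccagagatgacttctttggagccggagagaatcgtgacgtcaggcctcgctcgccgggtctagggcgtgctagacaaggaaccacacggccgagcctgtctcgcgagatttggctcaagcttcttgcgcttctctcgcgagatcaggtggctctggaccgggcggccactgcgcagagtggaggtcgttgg

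The capitals in Dlst are a GABPA match on the minus strand that begins at the start site. GABPA was searched as ACCGGAAGT, which 1.1% of 32851 RefSeq windows of 300 bases hold, and Dlst was the only member with it. Those in Ogdh are an NRF1 core match, CGCATGCG, which 1.87% of all windows hold. It lies 14 bases before the start site of the window shown, an overlapping Ogdh window holds the same site, and the other 4 Ogdh windows hold no match. The extended Esrra site, searched as TNAAGGTCA, stood in 1.28% of all windows and in none of the 13 member windows. No 2 matches overlap within a window, and a match describes the letters only and shows no binding. The windows shown for Sucla2 and Ogdh lie inside their GENCODE genes, which begin at chr14:73525319 and chr11:6291633.

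Counts per library totalled 14839758 to 22070373, and the 9 genes together took between 0.278% and 0.976% of them. The defining cardiomyocyte markers were abundant in every library: the summed level of 7 markers ran from 46533 to 63293 CPM (counts scaled to library size, with TMM factors over all 30 libraries) in 29 libraries. PBS_sham 3 stood apart at 23674 CPM. Cpt1a itself ran from 38.6 to 53.5 CPM in FF_sham, 11.3 to 19.8 CPM in KO_TAC, and 20.9, 23.1 and 23.8 CPM in 3 KO_sham libraries. The library labelled KO_sham 2 had 46.8 CPM, within the FF_sham range, and those labelled FF_TAC 2 and FF_TAC 3 had 21 and 16.7 CPM, against 49.9 and 34.9 CPM in the other FF_TAC libraries. Cpt1a is counted over all its exons, so the count does not isolate the deleted part. These 3 libraries and all 4 of KO_TAC had haemoglobin transcripts under 100 CPM and a mean early response level, log2(CPM + 1), of 7.12 to 8.89, against 3.79 to 6.15 elsewhere. The labels do not name a batch that matches this split. Mitochondrially encoded transcripts took 12.1% to 18.7% of counts in KO_TAC and 19.3% to 26.0% in the other libraries. In the AAV9 cohort Cpt1a ran from 54.9 to 85.9 CPM in AAV_sham, 43.8 to 61.5 in AAV_TAC and 36.7 to 70 in the PBS groups. AAV_TAC lay within the PBS range, but the top of that range, 70 CPM, is PBS_sham 3. The next highest PBS heart, PBS_TAC 2, had 59.1 CPM. Without PBS_sham 3, AAV_TAC 2 at 61.5 CPM lay above the PBS range and the other AAV_TAC hearts within it.

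Levels can be compared between genes only per length of exon. In FF_sham, Idh2 had the highest level, 761 ± 142 CPM per kilobase of exon (SD, n = 4). Ogdh followed at 444 ± 34.2, Mdh2 at 356 ± 40.5 and Cs at 224 ± 12.0. Sucla2 stood at 153 ± 12.7, Fh1 at 126 ± 11.9 and Idh3a at 119 ± 9.50 CPM per kilobase. Suclg1 and Dlst closed the order at 77.4 ± 3.31 and 72.1 ± 4.15. Among neighbours in this order, the libraries of Fh1 and Idh3a overlapped and so did those of Suclg1 and Dlst, while the other neighbours did not. The genes lie on 9 chromosomes of GRCm38, each spanning the exons and introns of 1 protein-coding gene: Cs at chr10:128337734-128362479, Idh2 at chr7:80094846-80115392, Idh3a at chr9:54586334-54604661, Ogdh at chr11:6291633-6356642, Dlst at chr12:85110833-85134845, Suclg1 at chr6:73248382-73276911, Sucla2 at chr14:73525319-73596142, Fh1 at chr1:175600374-175625635 and Mdh2 at chr5:135778480-135790398. Annotated exons of the 9 genes share no base with another gene on either strand, and no transcript of another gene matched them at 95% identity over 100 bases. All further levels are CPM and compare libraries, not genes.

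In knockout hearts under TAC, 5 of the 9 cycle transcripts were lower than in floxed hearts under TAC: Cs, Idh3a, Ogdh, Dlst and Sucla2, with fitted changes from -20.4% for Idh3a to -30.7% for Sucla2. Of all 15596 genes tested in the cohort, 14.3% were called in this comparison and 6.80% were called lower. No member was called higher. The median log2 fold change of the 9 was -0.35, against 0.04 over all genes. Calls are by the edgeR quasi-likelihood test with Benjamini-Hochberg adjustment over all genes, at an adjusted p under 0.05.

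Citrate synthase, the entry enzyme of the cycle, had 1183, 1034, 1080.1 and 1082 CPM in FF_TAC and 863, 716, 699 and 887 CPM in KO_TAC. Every KO_TAC heart lay below every FF_TAC heart, and KO_TAC 2 and 3 were lowest. The fitted log2 fold change was -0.44 (SE 0.10, edgeR adjusted p = 0.00764). The group means were 1095 ± 62.9 and 791 ± 97.5 CPM (SD, n = 4).

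Idh3a encodes the catalytic subunit of the NAD-dependent isocitrate dehydrogenase, and Idh2 the NADP-dependent mitochondrial enzyme. Idh3a had 616, 533, 498 and 565 CPM in FF_TAC and 425, 427, 434 and 447 CPM in KO_TAC. The 4 KO_TAC hearts sat close together, all below FF_TAC, with a log2 fold change of -0.33 (SE 0.10, edgeR adjusted p = 0.0360). Idh2 had 1879.6, 2389, 2349 and 2045 CPM in FF_TAC and 1040.0, 2048, 2018 and 1592 CPM in KO_TAC. Its groups overlapped, KO_TAC 1 lay far below the other 3, and the log2 fold change of -0.35 (SE 0.18) had an edgeR adjusted p of 0.210.

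Ogdh and Dlst encode the E1 and E2 subunits of the 2-oxoglutarate dehydrogenase complex. Ogdh had 2472, 2073, 2263 and 2353 CPM in FF_TAC and 1480.2, 1647, 1699 and 1877 CPM in KO_TAC, with no overlap and a log2 fold change of -0.43 (SE 0.11, edgeR adjusted p = 0.0176). Dlst was almost level across FF_TAC at 682, 678, 675 and 709.8 CPM and lower in every KO_TAC heart at 447, 489, 459.7 and 541 CPM. Its log2 fold change of -0.48 (SE 0.08) had the smallest edgeR adjusted p of the 9, 0.00245. Both subunits were called.

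Suclg1 encodes the shared alpha subunit of succinate-CoA ligase and Sucla2 its ATP-forming beta subunit. Sucla2 had 569, 715, 593 and 581 CPM in FF_TAC and 356, 462, 383 and 473 CPM in KO_TAC, without overlap. The log2 fold change of -0.53 (SE 0.11, edgeR adjusted p = 0.00732) was the largest of the 9 in size. Suclg1 had 333, 388, 319.6 and 309 CPM in FF_TAC and 208, 364, 276 and 248 CPM in KO_TAC. KO_TAC 2 lay inside the FF_TAC range while the other 3 lay below it, and the log2 fold change of -0.28 (SE 0.14) had an edgeR adjusted p of 0.187.

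Fh1, fumarate hydratase, had 394, 484, 403 and 396 CPM in FF_TAC and 306, 367, 327 and 355 CPM in KO_TAC. The groups did not overlap, yet the log2 fold change of -0.28 (SE 0.10) had an edgeR adjusted p of 0.0723. Mdh2, malate dehydrogenase, had 1214, 1452, 1289 and 1169 CPM in FF_TAC and 967, 1671, 1391 and 1157 CPM in KO_TAC. KO_TAC hearts lay on both sides of the FF_TAC range, with a log2 fold change of 0.04 (SE 0.14, edgeR adjusted p = 0.866). Its interval of 2 SE, -0.25 to 0.33 in log2, stopped short of the estimates of all 5 called members. In 6 of 9 members every KO_TAC heart was below every FF_TAC heart, as it was for 7.54% of all genes.

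**Figure D1:**
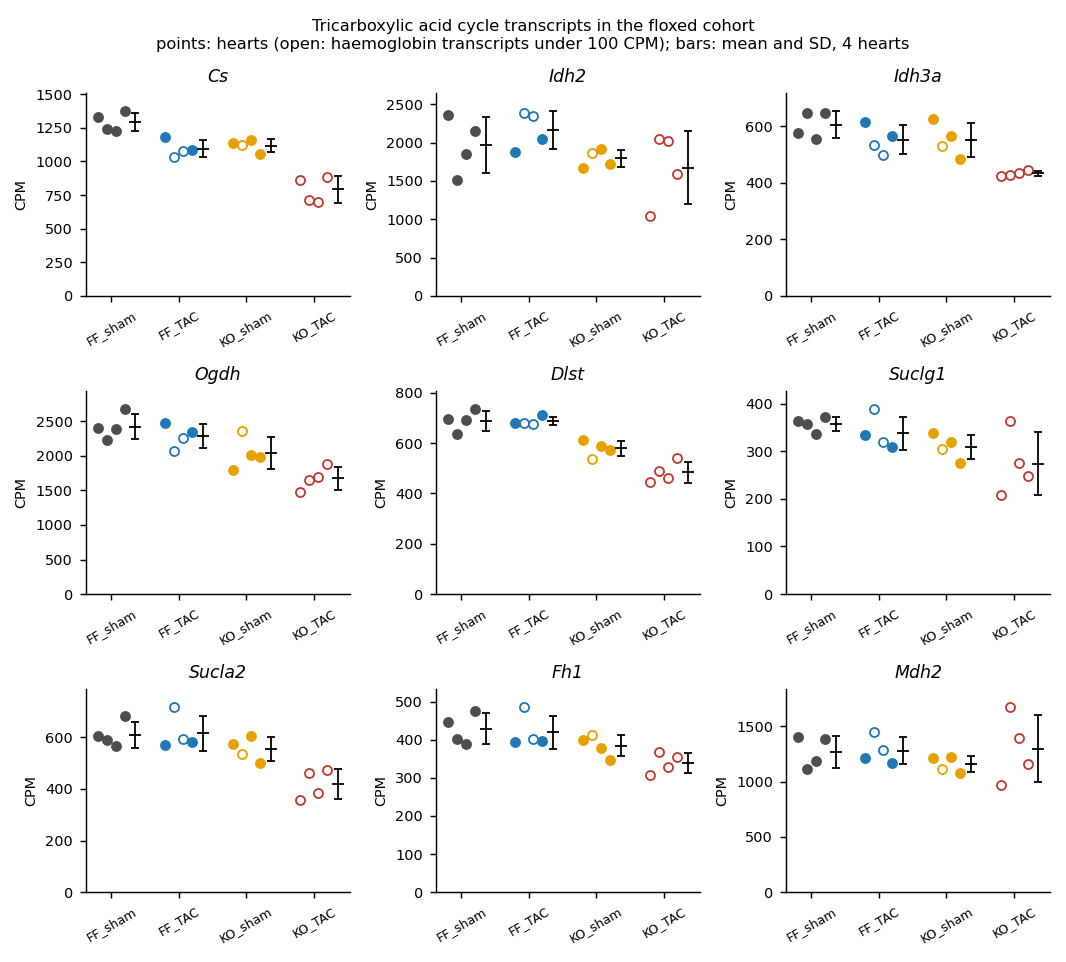
Level in CPM (y axis, from 0) of each of the 9 cycle genes in the 16 hearts of the floxed cohort by group (x axis); points are hearts, open points are libraries with haemoglobin transcripts under 100 CPM, and bars give the mean and SD of 4 hearts. KO_TAC lies below FF_TAC without overlap for Cs, Idh3a, Ogdh, Dlst, Sucla2 and Fh1, while Idh2, Suclg1 and Mdh2 spread widely within KO_TAC.

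The 5 calls depended on the fit. With only the 8 TAC libraries in the fit, 0 of 9 members were called (3.8% of all genes; edgeR adjusted p from 0.0540 for Dlst to 0.943 for Mdh2) at nearly the same log2 fold changes, from -0.54 to 0.03. A term for low haemoglobin transcripts left 3 calls, Cs, Dlst and Sucla2 (7.25% of all genes). The 2 FF_TAC libraries below that limit against KO_TAC alone gave 0 calls among members and 0% among all genes, with log2 fold changes of -0.41 for Cs, -0.48 for Dlst and -0.64 for Sucla2. With FF_TAC 2, FF_TAC 3 and KO_sham 2 left out, the same 5 members were called, an alternative added after the data were seen. Leaving out FF_TAC 1 or FF_TAC 4 left 3 calls, again Cs, Dlst and Sucla2. Idh3a was also lost without KO_TAC 2 or KO_TAC 3, and Suclg1 was called once KO_TAC 2 was left out.

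Markers of other cells moved with this comparison, in which 1175 of 15596 genes were called higher and 1061 lower. Of 5 fibroblast markers, 3 were called higher in KO_TAC (Col1a1, Col1a2 and Dcn), and the list summed to 1700.4 to 1750.02 CPM against 919 to 999 CPM in FF_TAC. Of 7 cardiomyocyte markers, 2 were called lower (Pln and Ttn) and none higher, with log2 estimates from -0.54 to 0.50 and 6 of 7 below 0. The list summed to 46533 to 62455 CPM in KO_TAC against 54557 to 60005 CPM in FF_TAC. Of 5 endothelial markers, 3 were called lower (Cdh5, Kdr and Tie1), with sums of 456 to 631 CPM against 681 to 902. Of 5 macrophage markers, 2 were called higher (Cd68 and C1qa), with sums of 176 to 207 CPM against 123 to 139.9. KO_TAC 1 also carried atrial transcripts, 8544 CPM over 4 markers, against at most 206 CPM in FF_TAC and 6.80 CPM in the other 3 KO_TAC hearts. Large parts of the cardiomyocyte sum moved in opposite directions. Myh6 averaged 17280 ± 5156 CPM in KO_TAC and 25498 ± 2218 in FF_TAC (SD, n = 4). Tnnt2 averaged 15393 ± 6860 and 11100 ± 2136 CPM. A share of this sum therefore also depends on which markers it holds. As a share of the cardiomyocyte sum, the 9 cycle genes came to 12.5% and 13.1% in KO_TAC 1 and 2 and to 16.5% and 16.3% in KO_TAC 3 and 4, against 16% to 17.2% in FF_TAC. On this scale 2 of the 4 KO_TAC hearts lay below the FF_TAC range and 2 within it. In whole-heart RNA, fewer cardiomyocytes and less RNA of a gene per cardiomyocyte cannot be told apart, and the part of these markers in the result was not tested.

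**Figure D2:**
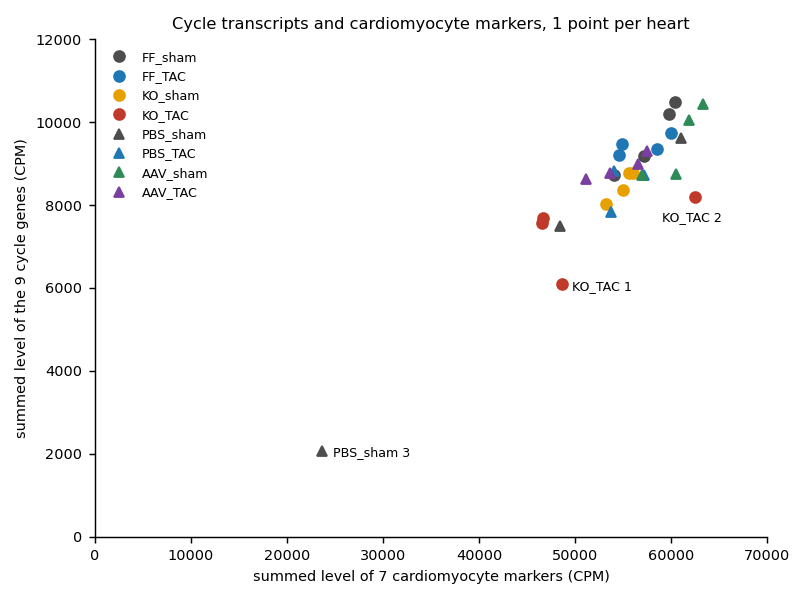
Summed level of the 9 cycle genes (y axis, CPM) against the summed level of 7 cardiomyocyte markers (x axis, CPM), 1 point per heart, circles for the floxed and triangles for the AAV9 cohort. KO_TAC 1 and KO_TAC 2 lie below the band formed by the other hearts at 12.5% and 13.1% of the marker sum, and PBS_sham 3 lies far to the lower left at 8.71%.

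Within the knockout, TAC hearts were compared with sham hearts. Cs, Idh3a, Dlst and Sucla2 were lower in KO_TAC, 4 of 9 members, while 25.8% of all genes were called and 11.5% were called lower. The median log2 fold change of the members was -0.25, against 0.02 over all genes. No member was called higher, and 3 of 9 had every KO_TAC heart below every KO_sham heart, as did 12.5% of all genes. The fibroblast sum was 857 to 1202 CPM in KO_sham, below KO_TAC, with 3 of 5 markers called higher. Of 7 cardiomyocyte markers, 3 were called lower (Pln, Myh6 and Ryr2) and none higher. Their log2 estimates went both ways, from -0.65 to 0.48, with 4 of 7 below 0. Of 5 endothelial markers 3 were called lower, and the part of these cells in the result was not tested.

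Cs had 1135, 1121, 1160.1 and 1054 CPM in KO_sham, a narrow band that none of the KO_TAC hearts reached, and a log2 fold change of -0.49 (SE 0.10, edgeR adjusted p = 0.00387). Sucla2 had 575, 534, 606 and 499.7 CPM in KO_sham, also clear of KO_TAC, with a log2 fold change of -0.39 (SE 0.11, edgeR adjusted p = 0.0220). Idh3a had 626, 529, 567 and 486 CPM in KO_sham, with a log2 fold change of -0.34 (SE 0.10, edgeR adjusted p = 0.0221). Its lowest sham heart, KO_sham 4, was still above all 4 TAC hearts. Dlst had 613, 538, 589.6 and 573 CPM in KO_sham, where the library labelled KO_sham 2 fell just below KO_TAC 4, and a log2 fold change of -0.25 (SE 0.08, edgeR adjusted p = 0.0431).

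Ogdh had 1802, 2359, 2008 and 1985 CPM in KO_sham and a log2 fold change of -0.27 (SE 0.11, edgeR adjusted p = 0.0743), with KO_TAC 4 above KO_sham 1. Idh2, Suclg1 and Fh1 had log2 fold changes of -0.09, -0.16 and -0.17, with edgeR adjusted p from 0.217 to 0.737. Mdh2 was the one member with a positive estimate, 0.18 (SE 0.14, edgeR adjusted p = 0.372), from 1209.9, 1113, 1224 and 1077 CPM in KO_sham. Only Cs was called with the 8 knockout libraries alone, and none with the term for low haemoglobin transcripts, where Cs had a log2 fold change of -0.45 (edgeR adjusted p = 0.0834). All 4 KO_TAC libraries and 1 KO_sham library are below that limit, so within the knockout TAC and low haemoglobin transcripts can hardly be told apart. Leaving out KO_sham 1, KO_sham 3 or KO_TAC 3 left Cs as the sole call. Dlst was lost in 6 of the 8 fits that leave out 1 library, and without FF_TAC 2, FF_TAC 3 and KO_sham 2 its adjusted p by edgeR was 0.0514.

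Sham knockout hearts had lower estimates than sham floxed hearts for all 9 members, from -0.26 to -0.14, but none was called, nor was any gene of the whole table by edgeR (0%). At an unadjusted p under 0.05 there were 3 of 9, Cs, Ogdh and Dlst, and 799 of 15596 genes, and DESeq2 and limma voom with sample weights called 0 members. Cs and Dlst did not overlap between the groups, 2 of 9 members with every KO_sham heart lower, against 3.28% of all genes. For Dlst the means were 689 ± 39.7 CPM in FF_sham and 578 ± 31.4 CPM in KO_sham (SD, n = 4), a log2 fold change of -0.26 (SE 0.08, edgeR adjusted p = 0.933). For Cs they were 1294 ± 69.2 and 1118 ± 45.2 CPM. The Dlst hearts were 694, 637, 692 and 734 CPM in FF_sham, all above the highest knockout sham heart. Ogdh, with 2411, 2225, 2389 and 2675 CPM in FF_sham, overlapped because the library labelled KO_sham 2 reached 2359 CPM. The other 3 KO_sham hearts lay below all 4 FF_sham hearts for Ogdh.

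Markers of other cells were read in these sham hearts as well. All 5 macrophage markers were at an unadjusted p under 0.05 and none was called by edgeR, with a median log2 fold change of 0.73 and sums of 152 to 265 CPM in KO_sham against 108 to 145 CPM in FF_sham. The 5 fibroblast markers had estimates above 0, a median of 0.32 and none called, with sums of 857 to 1202 CPM against 754 to 980.4 CPM. The 7 cardiomyocyte markers had a median of -0.04 and none called, and the part of these cells in the members' estimates was not tested.

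The remaining members overlapped between the sham groups. Idh2 was the most variable, with 2365, 1516, 1848 and 2146 CPM in FF_sham and 1673, 1859.5, 1919 and 1724 CPM in KO_sham, and all KO_sham hearts inside the FF_sham range. Sucla2 had 603, 589, 565 and 682 CPM in FF_sham and Mdh2 had 1402, 1112, 1183 and 1381 CPM. Suclg1 ran from 336 to 372 CPM in FF_sham and from 276 to 338 CPM in KO_sham. Fh1 ran from 389 to 476 CPM and from 347 to 411 CPM in these groups, and Idh3a from 554 to 647 CPM and from 486 to 626 CPM. In each of these 3 genes the lowest heart of the 8 was KO_sham 4.

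In floxed controls TAC left no member past the threshold (0% of all genes called by edgeR, 1.08% by DESeq2). Cs alone, 1 of 9 members, had an unadjusted p under 0.05, as did 1723 of 15596 genes (log2 fold change of Cs -0.26, SE 0.10, edgeR adjusted p = 0.392), and DESeq2 and limma voom called 0 members. Cs was also the 1 of 9 members whose FF_TAC hearts all lay below the FF_sham hearts, as 2.89% of genes did. The FF_sham values were 1331, 1243, 1229.7 and 1373 CPM, so the highest FF_TAC heart, at 1183 CPM, was close under the lowest sham heart. The other 8 estimates ran from -0.15 for Idh3a to 0.12 for Idh2. For Dlst and Sucla2 they were -0.02 and -0.01, with SE of 0.08 and 0.11.

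**Figure D3:**
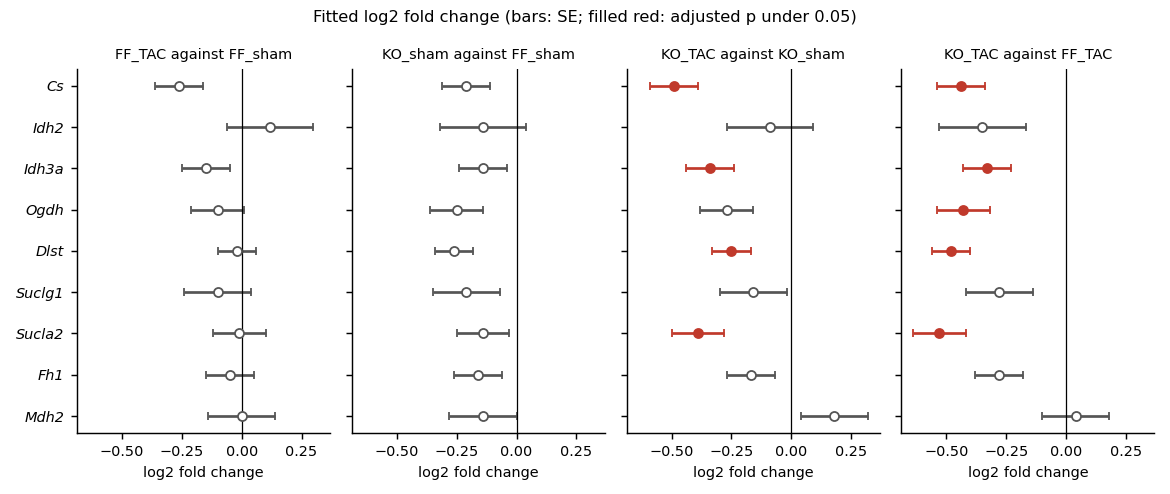
Fitted log2 fold change (x axis) of each of the 9 members (y axis) in the 4 pairwise comparisons of the floxed cohort, with bars of 1 SE, filled red where the edgeR adjusted p was under 0.05. KO_sham against FF_sham has all 9 estimates below 0 and none called, KO_TAC against KO_sham has 4 called and KO_TAC against FF_TAC has 5.

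The effect of TAC was not shown to differ between the genotypes. The interaction term was called for 0 of 9 members by edgeR, and for 0.0449% of all genes. With FF_TAC 2, FF_TAC 3 and KO_sham 2 left out it was called for 5.1% of all genes, and without KO_TAC 1 for 1.46%, with 0 members called in both fits. Sucla2 had the largest estimate in size, -0.39 (SE 0.16, edgeR adjusted p = 0.321), and was the one member with an unadjusted p under 0.05, as were 2041 of 15596 genes. For Cs, Dlst, Idh2, Idh3a and Ogdh the estimates were -0.23 to -0.18, and for Mdh2 0.18 (SE 0.20). DESeq2 called 0 members and 2.42% of all genes. Limma voom with sample weights called 2, Cs at -0.35 (adjusted p = 0.0369) and Sucla2 at -0.42 (adjusted p = 0.0448), where it called 18.8% of all genes. KO_TAC against KO_sham and KO_TAC against FF_TAC share the KO_TAC hearts, so their shared calls are not separate evidence.

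Members did not move as 1 block among the KO_TAC hearts. KO_TAC 1 had the lowest level of 8 of the 9 members among 29 libraries, PBS_sham 3 set aside; the exception was Cs, lowest in KO_TAC 3. Idh2 ran from 1040.05 to 2048 CPM, Mdh2 from 967 to 1671 CPM and Suclg1 from 208 to 364 CPM. Cs was lowest in KO_TAC 2 and 3, the hearts with the highest Idh2 and Mdh2. The ratio of Mdh2 to Cs, chosen after the values were seen, was 1.12, 2.33, 1.99 and 1.3 in KO_TAC and 0.992 to 1.07 in KO_sham. It was 1.03 and 1.08 in FF_TAC 1 and 4, and 1.4 and 1.19 in the libraries labelled FF_TAC 2 and FF_TAC 3, which have few haemoglobin transcripts. The library labelled KO_sham 2, which has few as well, had 0.992, and the part of this split in the ratio was not tested.

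Ratios within a library need no library size. Sucla2 to Suclg2, the ATP- and GTP-forming beta subunits of succinate-CoA ligase, had a mean of 3.37 in FF_sham, 3.57 in FF_TAC, 3.33 in KO_sham and 3.79 in KO_TAC. KO_TAC 2 had the highest value of the 30 libraries, 4.74, while the other 3 KO_TAC hearts lay between 3.38 and 3.62. Idh2 to Idh3a averaged 3.28, 3.97, 3.28 and 3.86 in the same order, with a spread from 2.44 to 4.8 within KO_TAC. In 16 two-sided exact permutation tests (both ratios, 8 pairs of groups) the smallest p was 0.114 and every adjusted p was 0.914. Before adjustment the design could reach 0.0286 for 4 against 4 hearts, 0.0571 for 4 against 3 and 0.1 for 3 against 3. After adjustment over 16 tests, a lone difference at these lowest values could not have been called. The adjusted p therefore cannot decide whether a ratio differed in a single pair of groups. Before adjustment, none of the 16 tests reached the lowest p of its design.

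The rest of the cycle was read from a list of 10 further subunits. In KO_TAC against FF_TAC, where 6.80% of all genes were called lower, Suclg2, Sdha and Dld were among those called lower. None of the 10 was called higher. Suclg2, the GTP-forming partner of Suclg1, had 172 ± 3.23 CPM in FF_TAC and 112 ± 18 CPM in KO_TAC (SD, n = 4), a log2 fold change of -0.60 (SE 0.11, edgeR adjusted p = 0.00264). Sdha, the flavoprotein of succinate dehydrogenase, had 1398 ± 64.2 and 983 ± 86.7 CPM, a log2 fold change of -0.48 (SE 0.10, edgeR adjusted p = 0.00442). Its partner subunits Sdhb, Sdhc and Sdhd had log2 fold changes of -0.21, -0.23 and -0.17, none called. Dld, the E3 subunit that works with Ogdh and Dlst, had a log2 fold change of -0.37 (edgeR adjusted p = 0.0215). In KO_TAC against KO_sham 2 of 10 were lower, Suclg2 and Sdha, and 0 higher, where 11.5% of all genes were called lower.

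Of the pyruvate dehydrogenase complex and its regulators, 5 of 11 were lower in KO_TAC against FF_TAC and 0 higher. The share of all genes called lower there was 6.80%. Pdpr and Pdp2, the regulatory and a catalytic subunit of the phosphatases that switch the complex on, had log2 fold changes of -1.58 (SE 0.24) and -1.27 (SE 0.23), with edgeR adjusted p of 0.00122 and 0.00249. Pdk2, a kinase that switches it off, had -0.48 (edgeR adjusted p = 0.00835). The list therefore holds called genes of opposite action. Pdk3, another kinase, had an estimate of 1.27 (SE 0.42, edgeR adjusted p = 0.0522). In KO_TAC against KO_sham 4 of 11 were lower, led by Pdpr at -1.60, Pdp2 at -1.32 and Pdha1 at -0.48. The share of all genes called lower there was 11.5%. Pdha1 shares 16.1% of its exon bases with Map3k15 on the opposite strand and is uncertain. Pdk4, a kinase induced by fasting, spread from 126 to 922 CPM in FF_sham alone and was not called in either comparison.

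Paralogues and cytosolic counterparts were lower for 3 of 6 tested genes against FF_TAC and 4 of 6 against KO_sham, with 0 higher in both. The shares of all genes called lower were 6.80% against FF_TAC and 11.5% against KO_sham. Csl, a relative of Cs, was too low to be tested. Ogdhl, a relative of Ogdh, had 201 ± 45.2 CPM in FF_sham, 177 ± 12.7 in FF_TAC, 113 ± 28.3 in KO_sham and 61.4 ± 18 in KO_TAC (SD, n = 4). Its log2 fold change in KO_TAC was -1.50 against FF_TAC (SE 0.22, edgeR adjusted p = 9.47e-04) and -0.88 against KO_sham (SE 0.22, edgeR adjusted p = 0.0117). Dhtkd1, a second relative, had -1.20 and -1.34, and cytosolic Idh1 had -0.69 and -0.78.

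Anaplerosis and exit genes, which fill and drain the cycle, had 0 of 9 called in either comparison. Against FF_TAC 3 were at an unadjusted p under 0.05, as were 4838 of 15596 genes. Against KO_sham it was 1, and 6315 of 15596 genes. The list gene with the smallest p was Me3, a mitochondrial malic enzyme. Its log2 fold changes were -0.29 (edgeR adjusted p = 0.0653) against FF_TAC and -0.22 (edgeR adjusted p = 0.110) against KO_sham. Lipoate synthesis and SDH assembly had 1 of 8 lower against FF_TAC, Lipt2 at -0.56 (edgeR adjusted p = 0.0403), and 0 of 8 against KO_sham. Of 9 PGC-1 and ERR regulators, 4 were lower against FF_TAC and 3 against KO_sham, with 0 higher. For this list and the one before, the shares of all genes called lower were 6.80% against FF_TAC and 11.5% against KO_sham. Ppara, the fatty acid receptor, had log2 fold changes of -1.23 (SE 0.22, edgeR adjusted p = 0.00277) and -1.33 (SE 0.22, edgeR adjusted p = 0.00187), and Esrrg had -0.59 and -0.57. Gabpa had -0.43 and -0.50, called in both, but shares 6.98% of its exon bases with Atp5j on the opposite strand. Esrrb at -0.51 was called against FF_TAC. Ppargc1a, which encodes PGC-1α, had -0.47 against KO_sham (SE 0.17, edgeR adjusted p = 0.0546). With the term for low haemoglobin transcripts the calls against KO_sham shrank to 1 of 10 cycle subunits, 2 of 11 pyruvate dehydrogenase genes, 1 of 6 paralogues and 1 of 9 regulators, where 1.78% of all genes were called. Against FF_TAC the same term left 4 of 11 pyruvate dehydrogenase genes, 3 of 6 paralogues and 3 of 9 regulators. It left 0 of 8 lipoate and SDH assembly genes there, where 7.25% of all genes were called. In the other 3 comparisons of the floxed cohort no gene of these 6 lists was called by edgeR.

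**Figure D4:**
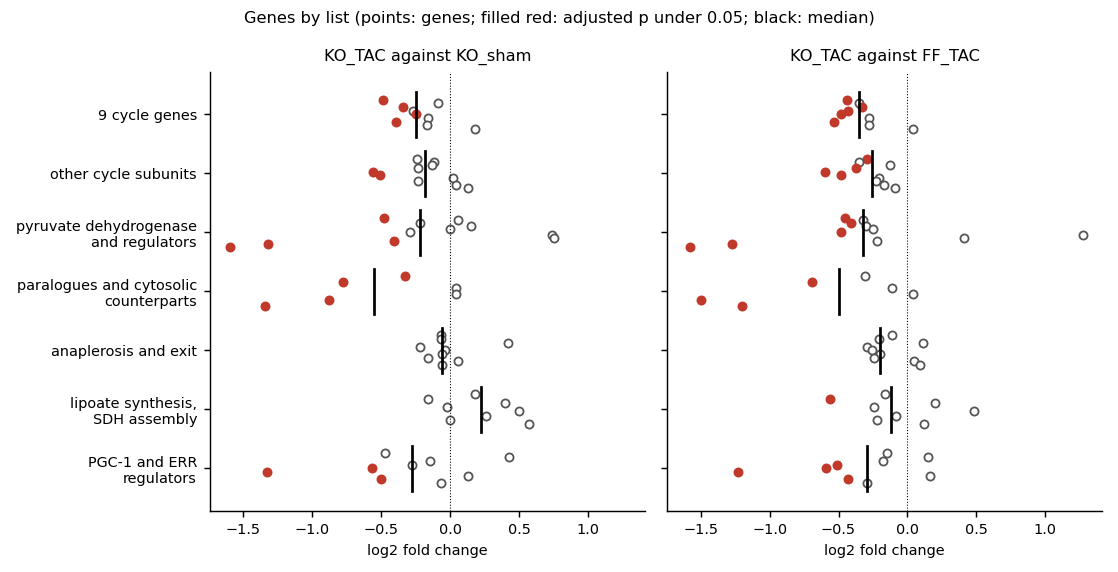
Log2 fold change (x axis) of every tested gene in the 9 cycle genes and 6 related lists (y axis) for KO_TAC against KO_sham and KO_TAC against FF_TAC; points are genes, filled red where the edgeR adjusted p was under 0.05, and black bars are list medians. Every filled point lies below 0, and anaplerosis and exit has none.

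In the AAV9 cohort no member was called in any of the 5 comparisons by edgeR, DESeq2 or limma voom. With all libraries in the fit, no member had an unadjusted edgeR p under 0.05. With PBS_sham 3 left out, Cs had an unadjusted edgeR p of 0.0297 in AAV_TAC against AAV_sham. In that fit Ogdh had 0.0477 in AAV_sham against PBS_sham, and neither was called. PBS_sham 3 stood apart from the other libraries. Its members lay far under every other library: Cs had 1247, 1044 and 204 CPM in PBS_sham, Ogdh 2225, 1869 and 465, Sucla2 630.0, 470.3 and 113 and Fh1 447, 359 and 67.1. All 9 members had their lowest level of the 30 libraries in it. Its smooth muscle markers summed to 1849 CPM, against at most 346 CPM in the other libraries, and its endothelial markers to 1245 CPM. The 9 cycle genes came to 8.71% of its cardiomyocyte sum, against 12.5% to 17.3% in the other 29 libraries. The part of other cells in its low values was not tested.

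Under TAC the vector and PBS hearts can be set side by side without PBS_sham 3. Idh2 had 1863, 1573 and 1954 CPM in PBS_TAC and 1857, 2120.1, 1945 and 1947 CPM in AAV_TAC. Sucla2 had 580.0, 494 and 604 CPM in PBS_TAC and 579, 574, 585 and 642 CPM in AAV_TAC, where AAV_TAC 4 was highest. Mdh2 had 1127, 999 and 1316 CPM in PBS_TAC and 1067, 1142, 1166 and 1220.3 CPM in AAV_TAC. Vector and PBS hearts overlapped for all 3. The cohorts share no control group, so no comparison was made between them.

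PBS_TAC against PBS_sham gave positive estimates for all 9 members, with a median log2 fold change of 0.40 and 0.0318% of genes called. Without PBS_sham 3 the median was -0.05 and the estimates ran from -0.18 for Cs to 0.09 for Ogdh, with 0 members called. Without PBS_sham 1 the median was 0.82, again with 0 members called, and 11% of genes were called. No member was free of overlap between these groups, against 14.5% of genes free of it in either direction. AAV_sham against PBS_sham had a median of 0.55, with 0.0127% of genes called, and 0.09 without PBS_sham 3. Without PBS_sham 1 it was 0.99, with 0 members and 17.4% of genes called. Ogdh had 2253, 2234, 2504 and 2759 CPM in AAV_sham, all above the PBS_sham hearts; it was the 1 of 9 members with every AAV_sham heart higher, as 5.38% of genes were. Without PBS_sham 3 its log2 fold change was 0.24 (SE 0.11, edgeR adjusted p = 0.432). Between vector and TAC, the interaction term had a median of -0.48 with 0.00635% of genes called, -0.03 without PBS_sham 3 and -0.91 without PBS_sham 1.

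AAV_TAC against AAV_sham and AAV_TAC against PBS_TAC do not contain that library, which enters only through the shared estimate of spread. In AAV_TAC against AAV_sham the median was -0.11 with and without it, and 0.00635% of genes were called. Cs had 1201, 1104, 1297 and 1378 CPM in AAV_sham and 1093, 956, 1128 and 1114 CPM in AAV_TAC, overlapping groups. Its log2 fold change was -0.21 with an SE of 0.38, and with PBS_sham 3 left out the SE was 0.09 (edgeR adjusted p = 0.246). The other estimates in that fit ran from -0.15 for Idh3a, Suclg1 and Fh1 to 0.03 for Idh2. All 9 members overlapped between these groups, where 10.3% of genes did not.

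Between vector and PBS hearts under TAC, estimates ran from -0.01 for Mdh2 to 0.12 for Idh2 and Dlst, with a median of 0.08, 0 called and 0.0381% of genes called. Dlst had 602, 561 and 612 CPM in PBS_TAC and 614, 642, 645 and 685 CPM in AAV_TAC. Every AAV_TAC heart was above every PBS_TAC heart for Dlst, the 1 of 9 members of which this held, against 4.33% of genes. Its log2 fold change of 0.12 had an SE of 0.25, or 0.09 with PBS_sham 3 left out (edgeR adjusted p = 0.872). With that library in the fit, its interval of 2 SE ran from -0.39 to 0.63, so these hearts do not show that the groups are alike. Cpt1a itself had a log2 fold change of 0.05 (SE 0.21) between these groups.

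**Figure D5:**
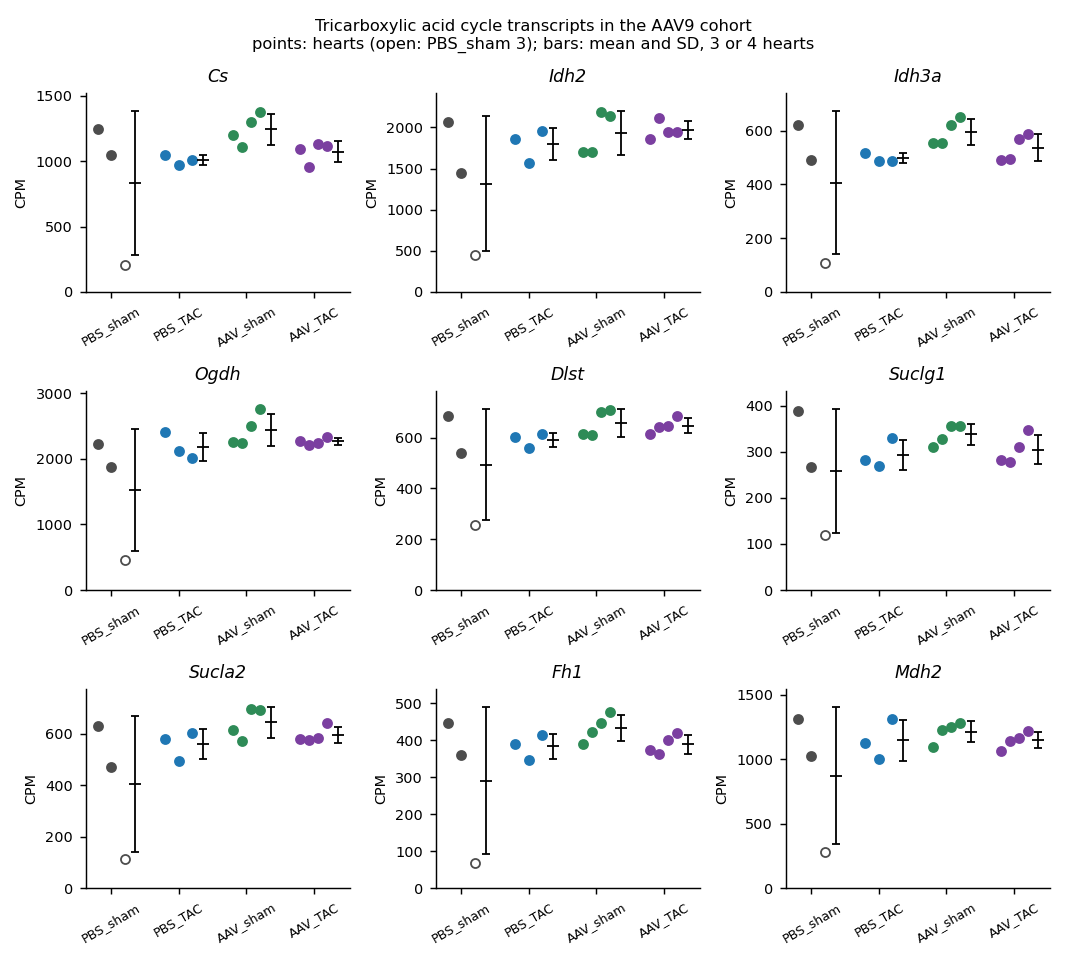
Level in CPM (y axis, from 0) of each of the 9 cycle genes in the 14 hearts of the AAV9 cohort by group (x axis); points are hearts, the open point is PBS_sham 3, and bars give the mean and SD of 3 or 4 hearts. PBS_sham 3 is the lowest heart in all 9 panels, and the other groups overlap for most genes.

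Across the 16 floxed libraries some members varied together more closely than others. Pearson's r of log2 CPM between pairs of members had a median of 0.67 over 36 pairs, from -0.25 for Cs and Mdh2 to 0.91 for Sucla2 and Fh1. Mdh2 had an r of 0.74 with Idh2 and 0.65 with Suclg1, and Idh2 had only 0.18 with Cs and 0.20 with Idh3a. Against the mean of the other 8, Sucla2 had the highest r, 0.925, and Mdh2 the lowest, 0.265. These values describe libraries that share groups and depth and carry no test. Genes of the related lists and the marker lists were left out of the search for like patterns, so they are not ranked here. Of the other genes, the 5 whose pattern was most like the mean of the 9 were Atp5a1 (r = 0.978), Acads (0.970), Acadm (0.968), Acat1 (0.962) and Slc25a34 (0.961), over 16 libraries. Atp5a1 encodes a subunit of ATP synthase, and Acads and Acadm are dehydrogenases of fatty acid oxidation. In the 14 AAV9 libraries r between members was 0.94 or more for all pairs, with PBS_sham 3 far below the rest. Over the 13 others it ran from 0.32 to 0.93. Outside the same lists, the genes most like the members there were Acadm (0.983), Slc2a4 (0.981), Hadhb (0.973), Atp5a1 (0.970) and Pygm (0.966).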

How the data were processed

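Counts of RNA fragments per gene from 30 mouse hearts were used as deposited by the authors, in 1 table of 55487 Ensembl identifiers. Per the submitters' processing notes, the authors used HISAT2 2.1.0, featureCounts of Subread 1.5.1 and GRCm38. The library kit was stranded, per the labels' protocols. The strand setting and annotation of the counting are not given in the sources used here. Identifiers were named from GENCODE, and those without a symbol held 0.00336% of counts.

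Each cohort was fitted apart with edgeR 4.0.16 in R 4.3.3 (TMM factors, low counts filtered with filterByExpr, robust quasi-likelihood test, 4 group means). All 4 groups of a cohort shared the estimate of spread. Benjamini-Hochberg adjustment ran over 15596 genes (floxed) and 15745 genes (AAV9). DESeq2 1.42.0 and limma 3.58.1 (voom with sample weights) were alternatives. Ratios were tested with SciPy 1.17.1, and near-identical transcripts were searched with BLAST 2.17.0. The edgeR fit of group means was tested on simulated data, read for KO_TAC against FF_TAC and for AAV_TAC against PBS_TAC. Only a small share of genes was changed in the simulation, in a single group. It therefore does not cover comparisons in which many genes differ. The DESeq2 and limma fits, the fits with added terms and the interaction terms were not tested in this way. Replicates differed by more than sampling noise in all 42 pairs within groups (chi-square per degree of freedom from 6.80).

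The 9 members, the 6 related lists and the marker lists were chosen with earlier results of these data known. All members are named. From each list up to 3 called genes with the largest change are named, or the one with the smallest p where none was called, in the 2 comparisons that held calls. Other list genes that are named were added for their role after their values were seen. Pattern genes are the 5 most correlated with the members' mean standardised log2 CPM (prior count 2), outside the members and all of these lists. The result of 1 list gene is not reported here.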

Additional observations from a re-analysis of the deposited data

Results flagged for a closer look

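Among 66 sets of 4 hearts examined (the level of a member or a log2 ratio within a group), 5 had 1 heart far from the other 3, by Dixon's criterion at the 95% level. Chance alone gives about 1 in 20. Sucla2 was 715 CPM in the library labelled FF_TAC 2, against 569 to 593 CPM in the others. In the same library Fh1 was 484 CPM, against 394 to 403 CPM. In AAV_TAC 4, Sucla2 was 642 CPM, against 574 to 585 CPM. The log2 ratio of Sucla2 to Suclg2 was 1.85 in FF_sham 2, against 1.71 to 1.73. The log2 ratio of Idh2 to Idh3a was 1.42 in KO_sham 1, against 1.76 to 1.83. FF_TAC 2 had few haemoglobin transcripts, 3.41 CPM, and the part of this in its values was not tested. Groups of 3 hearts, and so PBS_sham 3, were not examined in this way.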

How the results depend on the processing

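For KO_TAC against KO_sham, where 4 members were called, 2 were called with no filter on low counts (8.78% of all genes), 1 with only the groups compared in the fit (15.5%) and 0 with a term for low haemoglobin transcripts (1.78%). Leaving out 1 library at a time gave 1 to 5. For KO_TAC against FF_TAC, with 5 called, the haemoglobin term gave 3, only the groups compared 0, the libraries with low haemoglobin transcripts alone 0, and leaving out 1 library at a time 3 to 5. Without the filter 4.87% of all genes were called there. DESeq2 and limma voom each called more members than the main fit, 5 in KO_TAC against KO_sham and 6 against FF_TAC. Of all genes, DESeq2 called 30.9% against KO_sham and 19.6% against FF_TAC, and limma voom 53.4% and 38.5%. Limma voom called 2 members in the interaction of knockout and TAC, against 0 in the main fit. The cause of these differences was not tested. Some of these fits hold fewer samples. The fit without the filter holds more genes, so its shares are taken over a larger number of genes. With the replicate number as a block, 3 members were called against KO_sham and 4 against FF_TAC, Dlst and Idh3a being lost. The labels do not say whether the numbers pair the samples. Deviations of same-numbered libraries correlated at -0.35 to 0.45 over 16 pairs in the floxed cohort, with 6 over 0.1. In the AAV9 cohort they correlated at -0.41 to 0.29 over 13 pairs, with 5 over 0.1. Differently numbered libraries were not set beside these, so the values cannot decide whether the numbers pair the samples. Of 1602 values of members under 44 alternatives, 1549 kept their side of the threshold and, where called, their direction. Of the rest, 44 were no longer called and 9 became called, and 0 called values changed sign. Among the 1549, 59 uncalled values changed sign. Most of the 1602 were uncalled in the main fits. All 44 losses fall on the 4 members called against KO_sham and the 5 against FF_TAC. The 1602 are therefore no measure of how stable these calls are. In the AAV9 cohort members stayed at 0 calls under all alternatives run, while the share of all genes called without PBS_sham 3 was 0.742% in AAV_TAC against AAV_sham and 0.352% in AAV_TAC against PBS_TAC. Without PBS_sham 1 it was 11% in PBS_TAC against PBS_sham and 17.4% in AAV_sham against PBS_sham. DESeq2 called 2.37% in AAV_sham against PBS_sham and 2.35% in PBS_TAC against PBS_sham. Depth does not limit the members: their lowest count was 1633, for Fh1 in PBS_sham 3.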
